A study of Mus musculus with 2 samples.

Results

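The two-pore domain potassium channel genes were read as 10 genes in 2 libraries of the mouse cerebellar granule layer, chosen by symbol: *Kcnk1*, *Kcnk2*, *Kcnk3*, *Kcnk4*, *Kcnk5*, *Kcnk6*, *Kcnk9*, *Kcnk10*, *Kcnk12* and *Kcnk13*. All 10 were found among the 43346 Ensembl gene rows of each library, and the other 4 mouse genes of the family, *Kcnk7*, *Kcnk15*, *Kcnk16* and *Kcnk18*, had 0 counts in both. Both libraries were of 1 group: total RNA from laser-captured areas of 18000 square microns, with a starting quantity of 50 cells, from adult male wild-type mice labelled B6NCrl and C57Bl6, aged 8 months, prepared after a Smart-seq protocol, which copies and amplifies polyadenylated RNA from few cells. The areas were numbered biological replicates 1 and 2 under the same donor label, and whether they came from 1 animal or 2 is not stated, so the spread given here is between areas and may be technical. With no second tissue, treatment or genotype, the values below are levels in this layer and the difference between its 2 areas.

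Two-pore domain channels are potassium channels whose subunits each carry a pair of pore-forming loops and assemble as dimers. They are open at rest, pass a background or leak potassium current, and hold the resting potential negative. In cerebellar granule neurons, TASK-type channels are known as the source of a standing outward potassium current that sets excitability and is inhibited through receptors coupled to Gq. The subfamilies here are TWIK (*Kcnk1*, *Kcnk6*), TREK and TRAAK (*Kcnk2*, *Kcnk10*, *Kcnk4*), TASK (*Kcnk3*, *Kcnk9*), TASK-2 (*Kcnk5*) and THIK (*Kcnk12*, *Kcnk13*).

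The libraries held 19962271 and 19261911 expected counts in gene rows, and 12523 genes were detected in both, where detection means a TPM (transcripts scaled to a fixed total, a level per transcript length) of at least 1 and a count of at least 5. Granule neuron markers led the neuronal lists: all 6 were detected, with a summed level of 2607 TPM in replicate 1 and 2869 TPM in replicate 2, topped by *Gabra6* at 1006 ± 114 TPM (SD, n = 2). Markers listed for other cells were also detected: those of astrocytes and Bergmann glia (6 of 6, 607 and 568 TPM in all, *Aldoc* highest), oligodendrocytes (6 of 6, 559 and 690 TPM, *Mbp* highest), Purkinje cells (5 of 5, 353 and 422 TPM, *Gng13* highest) and endothelium (5 of 5, 218 and 172 TPM, *Ly6c1* highest). Within the Purkinje list, *Gng13*, *Pcp2* and *Pcp4* had means of 163, 125 and 90.8 TPM, but *Calb1* had 7.36 and *Car8* 1.95 TPM. Within the endothelial list, *Ly6c1* and *Itm2a* had 130 and 53.4 TPM, but *Cldn5*, *Flt1* and *Pecam1* had 4.1, 4.8 and 2.5 TPM. Both sums thus rest on part of their lists, and whether those cells were present was not tested. Smaller sums came from markers of microglia (8 of 9 detected, 132 and 99.4 TPM, *Ctss* highest), mural cells (4 of 8, 46.0 and 78.7 TPM, *Rgs5* highest), unipolar brush cells (2 of 3, 56.3 and 80.1 TPM, *Calb2* highest), Golgi cells (5 of 5, 46.8 and 34.3 TPM, *Gad1* highest), molecular layer interneurons (1 of 3, 34.2 and 32.6 TPM, *Pvalb* highest) and oligodendrocyte precursors (1 of 3, 4.37 and 5.81 TPM, *Olig1* highest). Of these, *Calb2* alone gave 49.7 and 76.1 TPM of the unipolar brush cell sum, and *Pvalb* 33.1 and 31.7 TPM of the interneuron sum. Each of these sums thus rests mostly on 1 gene and says little of whether those cells were present. The 5 red blood cell markers summed to 5040 TPM in replicate 1 and 390 TPM in replicate 2, led by *Hba-a2*. Because each library pools all cells of an area, fewer cells of a type and less RNA per cell cannot be told apart, and the cell type that held each channel RNA was not measured.

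In both areas, 5 of the 10 channel genes were detected and 5 were not, which is 50% against 50.4% of 21474 protein-coding genes. The detected genes were *Kcnk1*, *Kcnk10*, *Kcnk3*, *Kcnk12* and *Kcnk2*, in falling order of TPM. Their levels spread from *Kcnk1* at 143 ± 6.62 TPM to *Kcnk2* at 5.88 ± 1.90 TPM (SD, n = 2 each). The median level over protein-coding genes detected in both libraries was 14.3 TPM, so *Kcnk1*, *Kcnk10* and *Kcnk3* lay above it and *Kcnk12* and *Kcnk2* below. *Kcnk9*, *Kcnk13*, *Kcnk4*, *Kcnk6* and *Kcnk5* all lay under 1 TPM in each library. For *Kcnk9* this holds only for a counted model that covers part of its transcript, as given below.

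**Figure D1:**
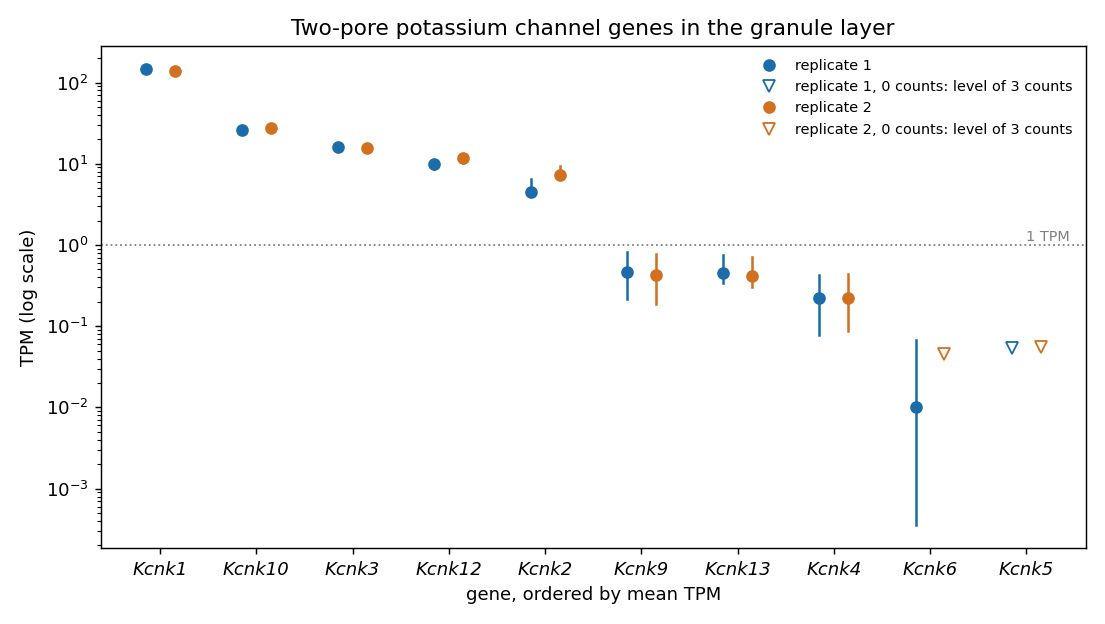
TPM on a log axis for each of the 10 genes in replicate 1 and replicate 2, with vertical lines for the authors' deposited intervals on TPM and open triangles at the level of 3 counts where the count was 0. *Kcnk1* stands at 148 and 139 TPM, 4 more genes lie above the dotted line at 1 TPM, and 5 lie below it. Among the latter, *Kcnk9* was counted on part of its transcript only.

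The bases just upstream of 3 genes are shown to let the sequence at the start of the leading gene be read beside those of the THIK pair, of which *Kcnk12* was detected and *Kcnk13* was not. Each is the 250 bases before the start site in RefSeq (GRCm38.p6), written along the gene's strand, with each CG dinucleotide in capitals. *Kcnk1* is chr8:125994852-125995101 on the plus strand, *Kcnk12* is chr17:87797995-87798244 on the minus strand and *Kcnk13* is chr12:99964249-99964498 on the plus strand.
Kcnk1: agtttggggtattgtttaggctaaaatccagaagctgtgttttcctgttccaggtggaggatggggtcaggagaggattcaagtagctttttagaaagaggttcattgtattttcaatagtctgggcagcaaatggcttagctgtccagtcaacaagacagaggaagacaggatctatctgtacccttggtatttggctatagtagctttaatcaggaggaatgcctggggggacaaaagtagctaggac
Kcnk12: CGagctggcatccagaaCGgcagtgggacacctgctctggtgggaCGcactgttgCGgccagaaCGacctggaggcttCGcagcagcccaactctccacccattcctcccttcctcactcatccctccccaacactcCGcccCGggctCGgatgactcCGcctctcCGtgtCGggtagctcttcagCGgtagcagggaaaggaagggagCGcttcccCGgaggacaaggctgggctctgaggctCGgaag
Kcnk13: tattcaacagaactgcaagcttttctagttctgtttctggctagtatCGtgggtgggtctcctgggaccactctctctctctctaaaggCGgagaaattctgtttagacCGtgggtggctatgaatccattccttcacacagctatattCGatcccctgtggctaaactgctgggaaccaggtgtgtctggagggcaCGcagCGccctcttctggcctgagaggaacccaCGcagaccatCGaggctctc

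The stretch before *Kcnk1* held 0 CG dinucleotides, that before *Kcnk12* held 16 and that before *Kcnk13* held 8, against a median of 6 over 32851 RefSeq promoters. A promoter sequence was matched for 7 of the 10 genes, and the other 4 counts were 27 for *Kcnk2*, 19 for *Kcnk5*, 16 for *Kcnk10* and 3 for *Kcnk4*. RefSeq lists 4 promoters for *Kcnk2* and 2 for *Kcnk10*, and 1 window per gene was read. The counts and motifs given here hold for those windows only. As many CG dinucleotides as before *Kcnk2* were found in 8.56% of all promoters, and as many as before *Kcnk12* and *Kcnk10* in 25.4%. By detection, the windows of detected genes held 0 (*Kcnk1*), 16 (*Kcnk10*), 16 (*Kcnk12*) and 27 (*Kcnk2*). Those of genes not detected held 3 (*Kcnk4*), 8 (*Kcnk13*) and 19 (*Kcnk5*). Whether the number of CG dinucleotides goes with the level was not tested. Short motifs known from promoters were searched on both strands. The E-box CAGCTG was present before *Kcnk2* and *Kcnk4* and in 13.0% of all promoters, while the E-box CAGATG (14.4% of all promoters) and the TATA motif TATAAA (12.4%) were in none of the 7 windows. CAGCTG reads the same on both strands, and no window held more than 1 of these motifs. The *Kcnk1* window ends before the M21 start of the gene, so the bases next to that start are not in it, and the *Kcnk10* window lies inside the M21 gene, directly before the start of the counted transcript. The *Kcnk2* window contains the start of the main counted transcript, whose first 125 bases lie in it, and the *Kcnk5* window likewise holds the first 27 bases of its transcript, so those CG counts include transcribed bases.

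*Kcnk1* encodes TWIK-1, a weakly conducting channel that is largely held inside cells when expressed alone. Its gene (ENSMUSG00000033998.8, chromosome 8, 125995170 to 126030685, plus strand, GRCm38) had 148 TPM in replicate 1 and 139 TPM in replicate 2, from 5580 and 5081 counts. These levels stood at the 96.3rd and 95.9th percentile of protein-coding genes. By the deposited TPM, both areas placed it far above the other genes of the family: the TPM of *Kcnk1* was 5.66 times that of *Kcnk10*, the next gene, in replicate 1 and 5.00 times in replicate 2. This order does not settle the place of *Kcnk9*, which was counted on part of its transcript only, as given below. The fold holds for the *Kcnk10* transcript of 2533 bases that was counted, while M21 also lists one of 7460 bases. In CPM, the count scaled to the library's gene counts, *Kcnk1* had 280 (95% Clopper-Pearson interval 272 to 287) in replicate 1 and 264 (257 to 271) in replicate 2; such intervals cover counting error only, since amplified reads are not independent molecules.

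The summed level of the 10 genes was 206 TPM in replicate 1 and 202 TPM in replicate 2, a mean of 204 ± 2.83 TPM (SD, n = 2). *Kcnk1* made up 71.8% and 68.6% of that sum, and *Kcnk10* 12.7% and 13.7%. These shares hold for the transcripts as counted, with *Kcnk9* counted on part of its transcript only and *Kcnk10* on its transcript of 2533 bases only. The shares of *Kcnk3* were 7.87% and 7.71%, those of *Kcnk12* 4.86% and 5.86%, and those of *Kcnk2* 2.20% and 3.58%. The other TWIK gene, *Kcnk6* (ENSMUSG00000046410.9, chromosome 7, 29221926 to 29232515, minus strand), which encodes TWIK-2, had 1 count in replicate 1 and 0 in replicate 2. For *Kcnk6*, 3 counts correspond to 0.0439 TPM in replicate 1 and 0.0451 TPM in replicate 2, so its level was at or under what the depth could show.

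*Kcnk10* encodes TREK-2, and *Kcnk2* encodes TREK-1, channels opened by membrane stretch, polyunsaturated fatty acids and heat. *Kcnk10* (ENSMUSG00000033854.9, chromosome 12, 98429437 to 98578310, minus strand) had 26.1 TPM in replicate 1 and 27.7 TPM in replicate 2, from 1089 and 1123 counts. *Kcnk2* (ENSMUSG00000037624.11, chromosome 1, 189207930 to 189402273, minus strand) had 4.53 TPM in replicate 1 and 7.22 TPM in replicate 2, from 214 and 337 expected counts. The ranges of these 2 genes did not overlap, with *Kcnk10* above *Kcnk2* in both areas. *Kcnk4* (ENSMUSG00000024957.8, chromosome 19, 6923966 to 6934515, minus strand), which encodes the mechanosensitive channel TRAAK, had 0.22 TPM and 6 counts in each library. TREK and TRAAK genes together summed to 30.9 TPM in replicate 1 and 35.1 TPM in replicate 2, or 15.0% and 17.4% of the 10-gene sum.

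*Kcnk3* encodes TASK-1 and *Kcnk9* encodes TASK-3, acid-sensitive channels that can also pair with each other. *Kcnk3* (ENSMUSG00000049265.6, chromosome 5, 30588170 to 30625271, plus strand) had 16.2 TPM in replicate 1 and 15.6 TPM in replicate 2, from 1031 and 962 counts. *Kcnk9* (ENSMUSG00000036760.6, chromosome 15, 72501089 to 72546340, minus strand) had 0.47 TPM in replicate 1 and 0.43 TPM in replicate 2, from 9 and 8 counts. The low *Kcnk9* value belongs to a short gene model: the transcript that was counted is 1209 bases long, equal to its coding length with the stop codon, while the same transcript is 12300 bases long in the later GENCODE annotation M21. The counted model thus covers 9.83% of the later one and holds 0 noncoding bases, so reads from the rest of the transcript were not part of the deposited count, and the level with the longer model was not measured.

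The counted lengths of the other 9 genes were 96.3% to 103% of the M21 length of the same transcript. Over 8446 protein-coding genes with 1 counted transcript that M21 also lists, 271 (3.21%) had a counted length under 50% of the later one, and 2 were at or below the share of *Kcnk9*. The median was 100%. For *Kcnk10*, M21 also lists a transcript of 7460 bases beside the 2533 bases that were counted. Any comparison of the TASK pair by TPM therefore sets a full-length model of *Kcnk3* (3810 bases) beside the coding part of *Kcnk9*.

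**Figure D2:**
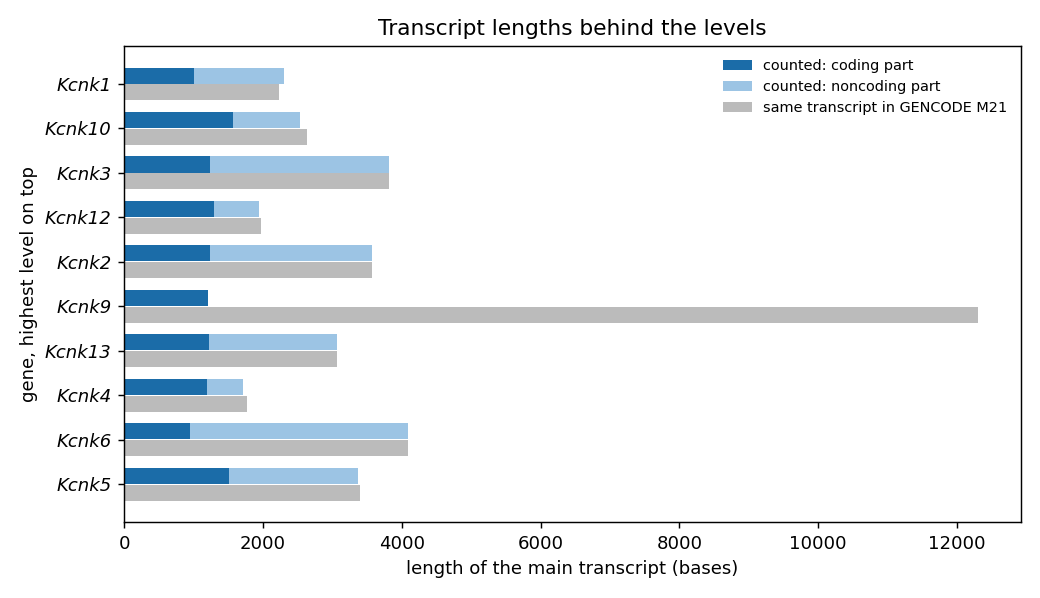
Length in bases of the main transcript of each gene, highest level on top, split into the coding and noncoding part of the counted model (blue) and set against the same transcript in GENCODE M21 (grey). *Kcnk9* has 1209 counted bases, none of them noncoding, against 12300 in M21, while the bars of the other 9 genes are of nearly equal length.

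*Kcnk12* encodes THIK-2, a subunit that is silent or nearly so when expressed alone, and *Kcnk13* encodes THIK-1, a channel inhibited by halothane and known as a main background potassium channel of microglia. *Kcnk12* (ENSMUSG00000050138.7, chromosome 17, 87745801 to 87797994, minus strand) had 10.01 TPM in replicate 1 and 11.8 TPM in replicate 2, from 315 and 362 counts. *Kcnk13* (ENSMUSG00000045404.11, chromosome 12, 99964499 to 100062682, plus strand) had 0.45 TPM in replicate 1 and 0.41 TPM in replicate 2, from 23 and 20 counts. The TPM of *Kcnk12* was thus above that of *Kcnk13* in both areas, with ranges that did not overlap. Beside the low *Kcnk13* values, the summed level of 9 microglia markers was 132 TPM in replicate 1 and 99.4 TPM in replicate 2, led by *Ctss* at 24.3 ± 4.78 TPM (SD, n = 2). *Kcnk5* (ENSMUSG00000023243.8, chromosome 14, 20140057 to 20181809, minus strand), which encodes TASK-2, an alkaline-activated channel known from kidney, had 0 counts in both libraries. A count of 0 allows up to 0.0536 TPM of *Kcnk5* in replicate 1 and 0.0552 TPM in replicate 2 (3 counts), for counting error only.

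The order of levels by mean TPM was *Kcnk1*, *Kcnk10*, *Kcnk3*, *Kcnk12*, *Kcnk2*, *Kcnk9*, *Kcnk13*, *Kcnk4*, *Kcnk6* and *Kcnk5*. Of the 9 pairs of neighbours in this order, 7 had ranges over the 2 areas that did not overlap. The exceptions were *Kcnk9* with *Kcnk13* and *Kcnk6* with *Kcnk5*. With the authors' deposited intervals on TPM, joined over the 2 areas, 5 of the 9 pairs were separated, because *Kcnk12* with *Kcnk2* and *Kcnk13* with *Kcnk4* then overlapped too. Within each area, the intervals of *Kcnk12* and *Kcnk2* were separate. They were 8.66 to 10.8 against 4.33 to 6.48 in replicate 1, and 10.3 to 12.7 against 6.63 to 9.41 in replicate 2. Those of *Kcnk13* and *Kcnk4* overlapped in each area. The largest step among detected genes was from *Kcnk1* to *Kcnk10*. The place of *Kcnk9* in this order rests on 9 and 8 counts and on the coding-only model described above, so no fold against *Kcnk2* is given.

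Set among 94 potassium channel genes and channel subunit genes with a *Kcn* symbol, of which 34 were detected in both areas, the 10 genes held 20.4% of the summed TPM in replicate 1 and 20.2% in replicate 2. *Kcnk1* ranked 2nd of the 94 by mean level, below *Kcnd2*, an A-type voltage-gated channel gene (174 TPM), and above *Kcnip4*, an accessory subunit of such channels (123 TPM). *Kcnk10* ranked 9th, between *Kcnmb4*, a subunit of calcium-activated channels (35.0 TPM), and *Kcnt1*, a sodium-activated channel gene (25.6 TPM). *Kcnk3* ranked 15th, directly above the G-protein-gated *Kcnj9* (12.3 TPM). *Kcnk12* ranked 18th, between the calcium-activated *Kcnn2* (12.2 TPM) and the accessory subunit *Kcnip1* (10.2 TPM). *Kcnk2* ranked 22nd, between the voltage-gated *Kcnh1* (8.77 TPM) and the accessory subunit *Kcnab3* (4.91 TPM).

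A list of 19 genes for other conductances open near rest had 13 detected members (68.4%). Its 3 highest were the granule neuron GABA receptor subunit *Gabra6* (1006 ± 114 TPM), *Unc80* of the sodium leak channel complex (159 ± 18.6 TPM) and *Gabrd*, a subunit of extrasynaptic GABA receptors (119 ± 1.43 TPM; SD, n = 2 each). *Hcn4*, a pacemaker channel gene, had 0 counts in both areas. The summed level of the two-pore genes (206 and 202 TPM) lay close to that of the sodium leak channel *Nalcn* with its 3 partners (215 and 187 TPM), whose range enclosed it. Most of that second sum was the partner *Unc80* (172 and 146 TPM), while the channel gene *Nalcn* itself had 17.3 and 15.0 TPM. The two-pore sum exceeded that of 8 inward rectifier *Kcnj* genes (112 and 113 TPM) and of 4 *Hcn* genes (3.76 and 3.61 TPM), with no overlap between areas. A sum of RNA levels over channels of different conductance says nothing of current.

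Genes for proteins known to bind, traffic or regulate two-pore channels were detected for 23 of 28 listed (82.1%). High levels were measured for *Ywhaz* (695 ± 29.5 TPM), a 14-3-3 protein of the family that brings TASK channels to the surface, and *Ywhae* (611 ± 59.7 TPM; SD, n = 2 each), another 14-3-3 protein. The 6 listed 14-3-3 genes summed to 2177 TPM in replicate 1 and 2338 TPM in replicate 2. The listed members with 0 counts in both areas were *Bves*, whose Popeye-domain protein binds TREK-1, and *Chrm3*, a muscarinic receptor coupled to Gq.

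Differences between the 2 areas were small for most of the detected channel genes. On the log2(TPM + 1) scale, which understates changes of low genes, the median absolute difference was 0.09 over the 5 detected members and 0.19 over all genes detected in both areas. None of the 8 members tested differed by over 2-fold, against 526 of 16636 tested genes (3.16%). On this scale a gene under 1 TPM in both areas cannot pass 2-fold, so only the 5 detected members could have. With so few genes, 0 is near the share over all genes. Of the 8 members with a summed count of at least 10, 3 differed beyond counting error at an adjusted p under 0.05 (exact binomial test on rounded counts, two-sided, Benjamini-Hochberg over all 16636 genes), against 47.6% of all genes tested. That test compares these libraries only, and with 2 areas of 1 group it bears on no condition.

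*Kcnk2* was the member with the largest difference, 0.57 higher in replicate 2 than in replicate 1 (log2 of TPM + 1, a fold of 1.49), with an adjusted p of 1.79e-07 in the exact binomial test. On CPM, its log2 difference was 0.70 with a 95% interval of 0.46 to 0.96. *Kcnk12* was also higher in replicate 2, by 0.22 on the log2(TPM + 1) scale, with an adjusted p of 0.0492 in the exact binomial test, and 0.0590 when genes with low counts were kept. *Kcnk1* was lower in replicate 2, with a log2 difference of -0.09 and an adjusted p of 0.00806 in the exact binomial test. *Kcnk3* differed by -0.06 (adjusted p 0.571) and *Kcnk10* by 0.08 (adjusted p 0.194) in the same exact binomial test, neither beyond counting error. With all counts divided by 10, as a stand-in for repeated reads of the same molecules, no member was called and the adjusted p of *Kcnk2* was 0.943 in the exact test.

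**Figure D3:**
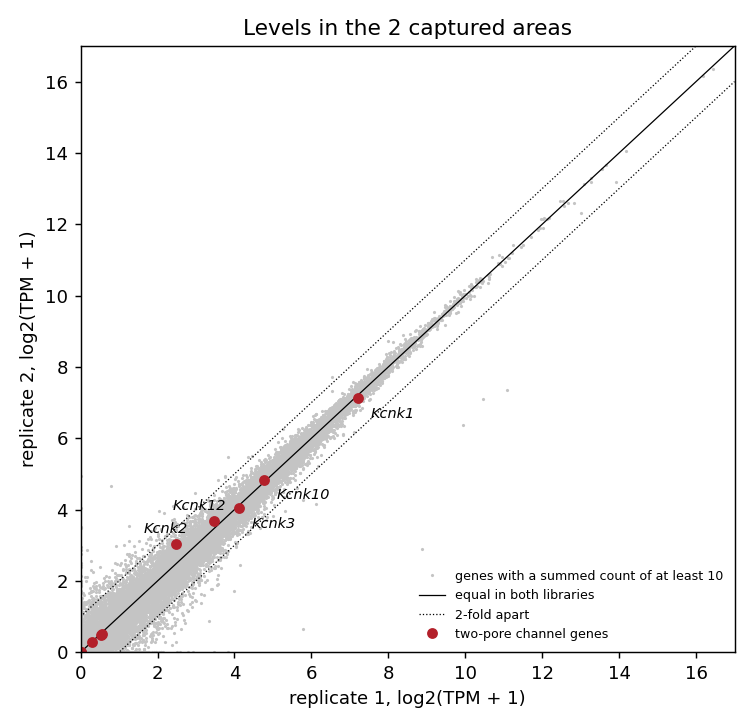
log2(TPM + 1) of replicate 2 against replicate 1, with the 10 two-pore genes in red and all genes with a summed count of at least 10 in grey; the solid line marks equal levels and the dotted lines a 2-fold difference. The red points lie inside the dotted lines, and *Kcnk2* is the farthest from the solid line, 0.57 above it.

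Marker sums moved between the areas as well. In the direction of *Kcnk2* and *Kcnk12*, the sums of granule neuron markers (6 of 6 genes higher in replicate 2, median log2 difference 0.08) and oligodendrocyte markers (6 of 6 higher in replicate 2, median 0.29) were higher in replicate 2. So were the sums of Purkinje cell markers (4 of 5 genes, median 0.26), mural markers (3 of 4 detected genes), unipolar brush cell markers (1 of 2 detected genes) and oligodendrocyte precursor markers (1 of 1 detected gene). In the direction of *Kcnk1*, all 8 detected microglia markers, all 5 endothelial markers, all 5 Golgi cell markers (median log2 difference -0.60), all 5 red blood cell markers (median -3.58), 5 of 6 astrocyte and Bergmann glia markers (median -0.12) and the 1 detected molecular layer interneuron marker were higher in replicate 1. The mural markers did not move together: the highest, *Rgs5*, had 27.9 TPM in replicate 1 and 19.9 TPM in replicate 2, and *Kcnj8* had 1.70 and 0.63 TPM. *Acta2* and *Tagln* were at 0 TPM in replicate 1 and at 6.35 and 4.28 TPM in replicate 2; these and *Kcnj8* were named after their values were seen. The part of these cells in the differences of the channel genes was not tested.

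*Kcnk2* was the detected gene with several counted transcripts, 10 in all, and the rest of the detected members were each counted as 1 transcript. Its main transcript, ENSMUST00000110920.2 (3572 bases), took 62.4% of the gene's TPM in replicate 1 and 69.4% in replicate 2. Its level was 2.82 TPM in replicate 1 (deposited interval 1.93 to 3.08) and 5.01 TPM in replicate 2 (3.51 to 5.35), with intervals that did not overlap. The second transcript, ENSMUST00000193319.1 (1548 bases), took 25.0% and 9.53%, with 1.13 TPM in replicate 1 and 0.69 TPM in replicate 2. A short noncoding transcript of 334 bases, ENSMUST00000193686.1, took 5.49% and 14.2% from 1 and 4 counts. The coding transcript ENSMUST00000079451.8 (3297 bases) had 0.15 TPM in replicate 1 and 0.50 TPM in replicate 2. The main transcript, the 334-base transcript and ENSMUST00000079451.8 were thus all higher in replicate 2, and the intervals were separate for the main transcript but overlapped for the other 2. The second transcript was lower in replicate 2, with overlapping intervals.

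**Figure D4:**
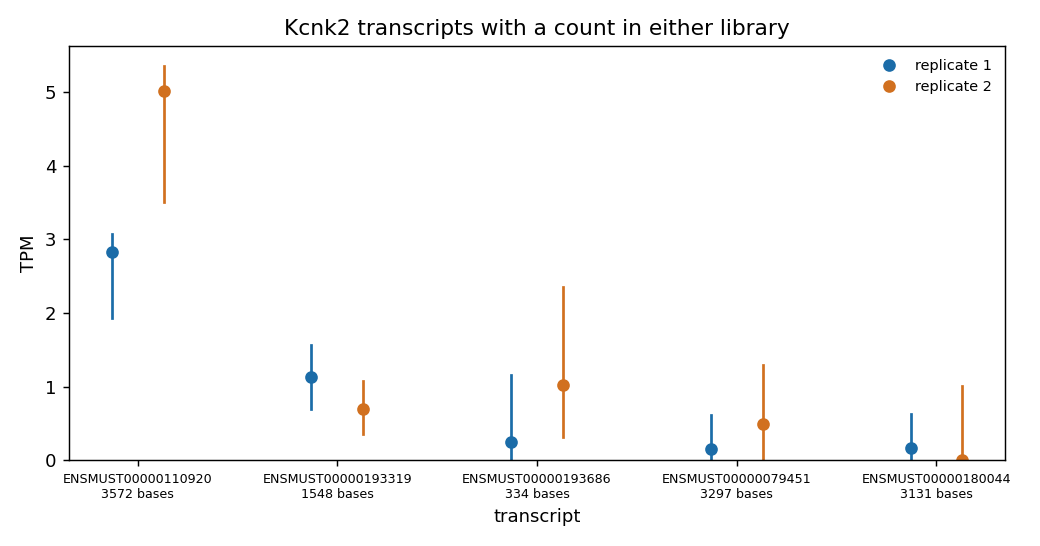
TPM of each *Kcnk2* transcript with a count in either library, replicate 1 in blue and replicate 2 in orange, with the authors' deposited intervals as vertical lines. The main transcript of 3572 bases stands at 2.82 and 5.01 TPM with separate intervals, and those of the other 4 transcripts overlap.

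Counts of some members could hold reads of a neighbour, since the use of strand is not given in the sources used here. In M21, exons of *Kcnk2* share 604 bases with the antisense gene *A430027H14Rik*, which had 66.7 and 42.2 counts. Exons of *Kcnk3* share 229 bases with *Gm9899* on the other strand, which had 1 and 2 counts, and exons of *Kcnk1* share 179 bases with the antisense gene *Gm45875*. Exons of *Kcnk4* in M21 share 587 bases with *Catsperz* on the same strand, which had 12 and 11 counts against 6 and 6 for *Kcnk4*. Only 1 of the 7 M21 transcripts of *Kcnk4* was counted, and 0 of the 1714 runs of 50 bases searched for this gene were found in other genes. The *Kcnk4* level rests on 6 counts in each library and is uncertain. No 50-base run of sequence was shared between any of the 10 genes. The share of such runs found in other genes was 9.26% for *Kcnk2*, 5.95% for *Kcnk1* and 5.10% for *Kcnk3*, and at most 0.768% for each of the others.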

How the data were processed

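Per the deposited notes, reads were placed on mouse assembly mm10 with annotation M4; no source used here names the aligner or the counting program. The authors deposited expected counts, TPM, FPKM, posterior means, interval bounds on TPM and a posterior SD of the count (here scores, interval level not stated) for genes, and the percent of each gene's TPM per transcript. The deposited intervals belong to the posterior mean, so a TPM can lie outside its own, as for *Kcnk1*. Gene names came from GENCODE M21 by ID without version (42462 of 43346 matched), with GRCm38 coordinates. Expected counts were rounded for a two-sided exact binomial test between libraries (scipy 1.17.1), with Benjamini-Hochberg adjustment, on genes with a summed count of at least 10; no model of replicate spread was fitted, because the 2 libraries form 1 group. TMM factors (edgeR 4.0.16) were an alternative. The binomial script was tested on simulated counts that varied by counting error only. That simulation lacks the added spread of amplified reads, so it does not show how the test behaves on these libraries. Values were computed with Python 3.11.15, pandas 2.3.3 and numpy 2.4.6. Named genes were all members, the 3 highest and every member at 0 counts of each comparison list, the highest marker of each cell type and the *Kcn* genes next to each detected member; 2 genes that this rule names are not reported here. The members and lists were chosen with earlier results of these data known.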

Additional observations from a re-analysis of the deposited data

How the results depend on the processing

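No result reversed under any alternative tried, but several changed in size and some calls between the areas were lost. Leaving out 1 replicate gave 5 to 5 detected members, a summed level of 201.9 to 205.9 TPM, a *Kcnk1* share of 68.6% to 71.8% and a *Kcnk2* main transcript share of 62.4% to 69.4%. Accepting any count raised the detected members to 8. The summed level was 198.8 with the posterior mean TPM, 170.2 as FPKM and 343.4 with TPM rescaled to nuclear protein-coding genes. By expected counts, not per length, the *Kcnk1* share was 65.9%. Without a filter on low values, the median absolute log2 difference of the members between areas was 0.048, against 0.094. Of the 7923 genes beyond counting error, 117 were left with counts divided by 10. The members called numbered 3 in the main setting, 2 without the filter on low counts and 0 with counts divided by 10. The 526 genes over 2-fold apart became 2334 with a pseudocount of 0.1, 38 with a pseudocount of 5 and 857 without a filter on low counts; no channel gene was over 2-fold apart under any of these. Neighbours separated in the order of levels numbered 5 with the deposited intervals joined over the 2 areas, against 7 by the ranges. No paired analysis was possible because both libraries belong to 1 group. *Kcnk9*, *Kcnk13*, *Kcnk4*, *Kcnk6* and *Kcnk5* had 0 to 23 counts per library, so their levels rest on few counts or none. The level of *Kcnk9* is also limited by its coding-only model.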
